A study of Homo sapiens with 2 samples.

Results

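Peaks of MTR4-HA RNA immunoprecipitation whose centre lay in protein-coding sequence were examined in PLC/PRF5, a long-established line of human hepatocellular carcinoma cells. RNA immunoprecipitation sequencing (RIP-seq) pulls a protein out of a lysate with an antibody and sequences the RNA that comes with it. A peak was kept if its midpoint fell in a coding segment of any transcript of a protein-coding gene and lay more than 1000 bases from the start site of every canonical protein-coding transcript. This rule kept 694 of the 3302 peaks on chromosomes 1 to 22 and X, or 21.0% (Wilson 95% interval 19.7 to 22.4%). The other peaks had their midpoints in introns (1543), 3' UTRs (443), exons of noncoding transcripts (265), 5' UTRs (142), between genes (141) or in coding sequence near a start site (74).

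The series held 2 libraries, 1 made with an anti-HA antibody and 1 with IgG, and both came from nuclear lysates of cells that overexpressed HA-tagged MTR4 from a plasmid vector. The methods of the study describe IgG as the control antibody, whereas the title of that library holds the word input, and how it entered the peak calling is not stated. The analysis used 1 peak list, on hg19, and neither antibody had a replicate, so the values below describe 1 list and no difference between antibodies was tested. The list gives no read count or enrichment for a peak, so the depth is unknown, and intervals cover counting error within the list only.

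MTR4 is an RNA helicase of the nucleus that unwinds RNA and feeds it into the exosome, a multi-subunit nuclease that processes or destroys RNA. It works with partner proteins in the TRAMP, NEXT and PAXT complexes. A coding exon in a nuclear lysate can belong to unspliced pre-mRNA, in which introns flank it, or to spliced mRNA that has not left the nucleus. A peak position on the genome does not separate these forms.

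The coding exons under the peaks are shown first for a few genes, in GRCh37 (hg19) coordinates on the strand of the gene, with the exon in capitals and 30 bases of intron on each side in lower case. HK1, hexokinase 1, catalyses the entry step of glycolysis. It is shown because it was the one gene of the glycolysis list used below with such a peak. HKDC1, a hexokinase domain gene that is not on that list, also held one. DIS3L, a ribonuclease that acts with the cytoplasmic exosome, was the one gene of the exosome list. ZWILCH is a kinetochore protein, ATR the kinase that answers stalled replication, MYO5A a myosin motor and HERC2 a giant ubiquitin ligase, and these 4 were among the genes with most peaks. Each exon was shorter than the 400 bases of a peak, so the peak reached into both introns, past the AG that ends the upstream intron and the GT that opens the downstream one.
HK1 exon 14 of 18, chr10:71148923-71149082, plus strand: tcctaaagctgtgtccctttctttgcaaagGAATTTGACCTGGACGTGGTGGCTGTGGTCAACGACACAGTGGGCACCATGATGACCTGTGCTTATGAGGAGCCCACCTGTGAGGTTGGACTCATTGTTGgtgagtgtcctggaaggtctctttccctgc
DIS3L exon 4 of 17, chr15:66601017-66601212, plus strand: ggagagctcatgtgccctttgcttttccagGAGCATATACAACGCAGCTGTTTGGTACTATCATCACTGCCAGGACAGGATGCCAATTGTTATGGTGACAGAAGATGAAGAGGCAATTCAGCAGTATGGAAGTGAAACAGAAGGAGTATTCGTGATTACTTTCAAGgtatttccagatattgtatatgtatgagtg
ZWILCH exon 15 of 19, chr15:66828241-66828437, plus strand: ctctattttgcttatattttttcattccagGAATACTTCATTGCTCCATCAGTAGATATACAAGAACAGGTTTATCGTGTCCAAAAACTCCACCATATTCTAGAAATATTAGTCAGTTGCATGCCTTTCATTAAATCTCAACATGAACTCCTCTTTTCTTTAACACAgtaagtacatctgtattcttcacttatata
ATR exon 42 of 47, chr3:142180752-142180962, minus strand: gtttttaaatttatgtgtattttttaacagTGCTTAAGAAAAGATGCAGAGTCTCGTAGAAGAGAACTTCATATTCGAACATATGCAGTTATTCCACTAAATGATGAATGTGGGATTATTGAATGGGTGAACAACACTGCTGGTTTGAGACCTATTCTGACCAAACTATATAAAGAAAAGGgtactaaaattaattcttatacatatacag
MYO5A exon 34 of 42, chr15:52628630-52628783, minus strand: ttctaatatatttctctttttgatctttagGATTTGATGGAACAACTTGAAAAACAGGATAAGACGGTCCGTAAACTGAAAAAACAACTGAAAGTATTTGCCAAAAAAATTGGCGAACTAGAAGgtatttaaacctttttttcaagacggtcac
HERC2 exon 21 of 93, chr15:28493668-28493912, minus strand: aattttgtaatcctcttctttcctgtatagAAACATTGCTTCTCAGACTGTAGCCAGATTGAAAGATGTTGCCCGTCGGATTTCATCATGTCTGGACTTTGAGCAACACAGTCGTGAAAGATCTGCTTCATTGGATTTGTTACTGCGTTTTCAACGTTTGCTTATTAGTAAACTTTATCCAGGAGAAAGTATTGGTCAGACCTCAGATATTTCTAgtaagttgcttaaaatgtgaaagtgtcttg

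The midpoint was coding, but the peaks were on average as much intron as exon. Every peak was 400 bases wide, and a mean of 49.7% ± 24.4 (SD, n = 694 peaks) of its bases were coding in 1 or more transcripts. Coding bases per peak ranged from 33 to 400 with a median of 172, and intron bases averaged 194 ± 102 (SD). Only 77 peaks (11.1%, interval 8.97 to 13.6%) were coding over their whole length. A splice site lay inside 599 peaks (86.3%, 83.6 to 88.7%), and 549 peaks (79.1%) held an entire coding exon. Of the 694, 7 held 4 or more splice sites. UTR bases were present in 71 peaks (10.2%).

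Coding sequence at large gave similar values. A 400-base window was centred on each of the 6970588 coding bases of canonical transcripts on the same chromosomes that lie beyond the same limit from a start site, and 53.1% of a window was coding on average and 80.1% of windows held a splice site. Within the genes that held a peak in a coding exon, these values were 51.9% and 82.8%. Counted in the same way, by 1 transcript per gene, the coding share of the peaks was 49.1%. The peaks thus held slightly less coding sequence than such windows did. Fully coding windows made up 16.4% of all windows and 15.3% of those in the same genes, against 11.1% of the peaks (interval 8.97 to 13.6%).

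The midpoint lay in an internal coding exon for 577 peaks (83.1%), in the first coding exon for 44, in the last for 61 and in the sole coding exon of a gene for 12. The last coding exon held 8.79% of the peaks (interval 6.90 to 11.1%). It held 14.6% of all coding bases on these chromosomes but 8.76% of those in the same genes, which have many exons, so beside their own genes the peaks were not short of last exons. Position along the coding sequence was even. The median was 52.4% of the way from the start codon to the stop codon (quartiles 27.8 and 74.4%), against 51.5% for all coding bases of the same genes. With the coding sequence cut into 5 equal parts, 16.9, 20.9, 21.2, 22.2 and 18.9% of the peaks lay in these parts from the start codon on. For all coding bases of the same genes these shares were 17.6, 20.5, 20.7, 20.7 and 20.6%.

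Nearly all of these exons belong to the standard form of the gene. The midpoint was coding in the canonical transcript for 680 peaks (98.0%, interval 96.6 to 98.8%) and in other transcripts only for 14. Among these 14 were 2 peaks in TASOR2, in exons 2 and 5 of one of its transcripts, and 1 each in MLLT10, a chromatin reader, POLL, a DNA polymerase of base excision repair, and FRMD5. For 87 of 693 peaks (12.6%), the exon was left out of 1 or more coding transcripts that span it. Cassette exons were no more frequent than around them. Of 573 internal canonical exons with a peak, 61 (10.6%, 8.38 to 13.4%) were skipped in an annotated coding transcript, and of the 6074 other internal exons of the same genes 768 (12.6%, 11.8 to 13.5%) were. Exons whose length is a multiple of 3, which can be left out without a change of reading frame, made up 36.6% of the former and 38.7% of the latter.

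Exons with a peak were longer than the other exons of the same genes and had longer introns beside them, with exons pooled over genes rather than compared within each gene. Internal exons with a peak had a median of 158 bases (quartiles 117 and 206), and the other internal exons of the same genes 124 (91 and 162). A longer exon offers more positions for a midpoint. The share of exons with a peak rose from 4.29% of 2049 exons under 100 bases to 29.4% of 235 exons of 300 bases or more. Counted per kilobase of exon, however, the density was 0.571, 0.568, 0.661 and 0.656 peaks in the 4 classes under 300 bases and 0.341 in the longest. GC content did not separate the exons, with a mean of 47.6% ± 9.22 (SD, n = 573) against 47.6% ± 8.98 (SD, n = 6074). The upstream intron had a median of 2449 bases against 1779 beside the other exons, and the downstream intron 2207 bases against 1659.

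**Figure D1:**
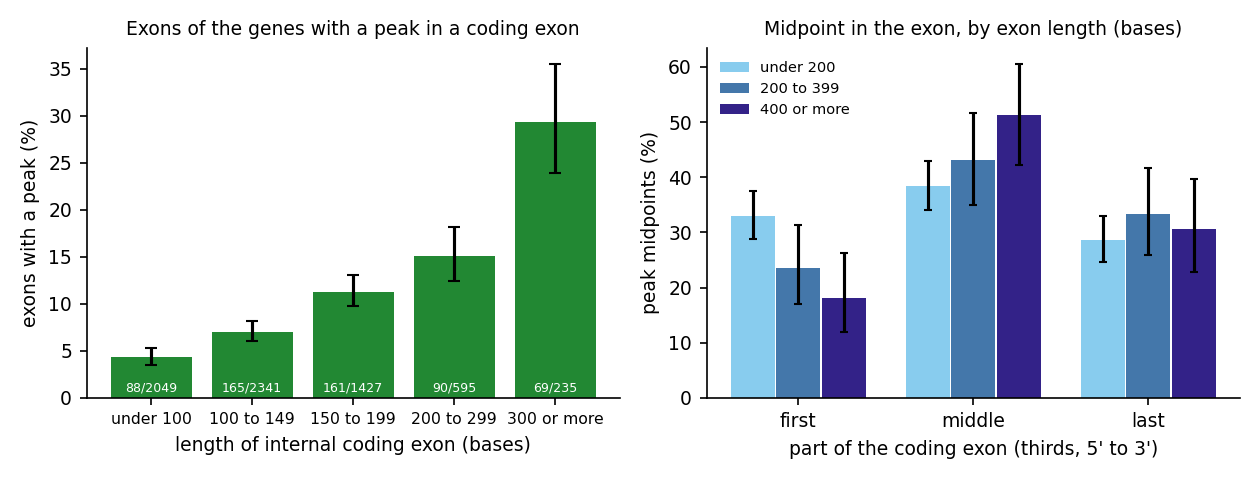
Left, share of internal coding exons that held a peak midpoint (%), by exon length in bases, among genes with a peak in a coding exon; numbers in the bars are exons with a peak over all exons. Right, share of peak midpoints (%) in the first, middle and last part of the coding exon cut into 3 equal parts, by exon length. Error bars are Wilson 95% intervals. The share rises with length from 4.29 to 29.4%, and midpoints in exons of 400 bases or more lay in the middle part in 51.4%.

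No coding exon held more than 1 of these peaks. The 694 midpoints fell in 694 different coding exons, and no other listed peak touched any of them. This held for the 51 peaks in coding exons of 1000 bases or more too, which have room for several 400-base peaks. The longest were the 10227-base exon 23 of STARD9, a kinesin of mitosis, a 5655-base exon of TCF20, a 5209-base exon of PRR14L, a 3544-base exon of CELSR1 and the 3513-base coding exon of ZBED4. Midpoints in exons of 1000 bases or more lay in the middle of 3 equal parts of the exon in 29 of 51 (56.9%, interval 43.3 to 69.5%), in the first part in 8 and in the last in 14. Over all lengths these counts were 287, 200 and 207. The closest pair of peaks in coding exons started 1050 bases apart, in SECISBP2L, which is named here for that distance after its value was seen. Peak starts lay on steps of 100 bases on chromosomes 3, 10, 20 and 22 and of 105 bases on chromosome 15, so a position within an exon is known no more finely than that.

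Coding exons of 488 genes held a peak. Of these genes, 365 had 1, 78 had 2 and 45 had 3 or more. The 10 genes with most peaks held 58 between them, and 56 of the 58 lay in internal coding exons. HERC2 had 10, in exons 14, 17, 21, 37, 39, 42, 49, 67, 69 and 70 of 93. Its relative HERC1 had 5, in exons 26, 31, 32, 35 and 42 of 78. DNAJC13, which sorts cargo on endosomes, had 6, in exons 6, 15, 28, 32, 33 and 48 of 56. MYO5A also had 6, in exons 6, 13, 16, 22, 24 and 34 of 42.

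VPS13C, which moves lipids between organelles, had 6 as well, in exons 31, 35, 54, 66, 67 and 74 of 85. ATP2C1, the calcium and manganese pump of the Golgi, had 5, in exons 11, 17, 19, 24 and 27 of 28. In ATR the exons were 4, 5, 32, 42 and 47 of 47, and in CABIN1, a partner of calcineurin, they were 5, 16, 18, 32 and 37 of 37. ZNF106, a zinc finger protein, had peaks over exons 3, 4, 8, 13 and 15 of 22, and ZWILCH over exons 4, 5, 13, 15 and 17 of 19. In HERC1 the midpoints lay between 33.2 and 57.9% of the coding sequence, and in the other 9 genes they spread more widely. Exons between them held none of these peaks. Across all genes, 204 pairs of successive peaks fell in 1 transcript. In 36 of these pairs the exons were adjacent, and the median step was 4 coding exons, with a largest step of 35.

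**Figure D2:**
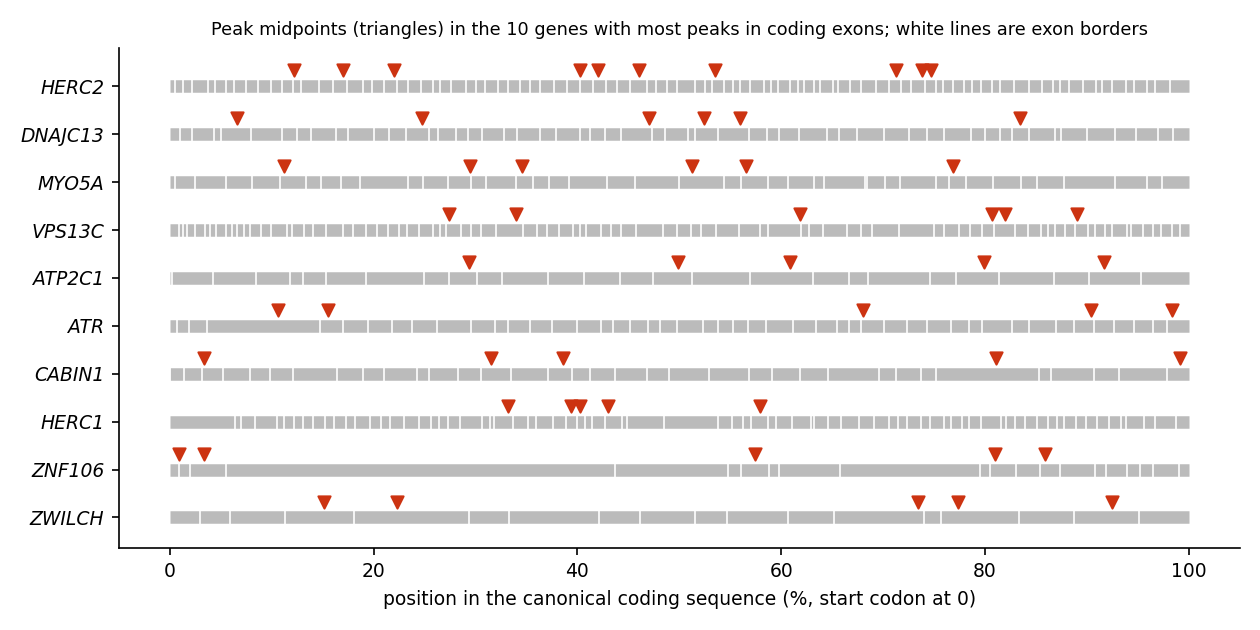
Peak midpoints (triangles) along the canonical coding sequence of the 10 genes with most peaks in coding exons. The horizontal axis is position in percent of the coding sequence from the start codon, and white lines are the borders of coding exons. HERC2 carries 10 peaks between 12.2 and 74.7%, and no exon carries 2.

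ZNF106 had no peak other than these 5. The remaining genes of the 10 also held peaks elsewhere, with 14 peaks in all in HERC2, 10 in VPS13C, 9 each in HERC1 and ZWILCH, 8 in DNAJC13 and 7 each in ATP2C1, ATR, CABIN1 and MYO5A. Of the 7 within the span of ATP2C1, 1 lay in a coding exon of the overlapping gene ASTE1. Of all 488 genes, 335 (68.6%, interval 64.4 to 72.6%) held another listed peak, 249 of them an intronic one and 121 one in a 3' UTR. Of all 4362 protein-coding genes on these chromosomes, 1400 (32.1%) held any peak. The 488 genes were longer, with a median of 60892 bases against 34549 for protein-coding genes there. The part of gene length and of chromosome in the 68.6% was not tested. Peaks with midpoints outside coding sequence touched it too, with 1 or more coding bases in 590 of 2534 (23.3%).

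Some of HERC2 has near-identical copies in the genome, and its positions are uncertain for that reason. Of the 31-base words in a peak, 69.7% occurred at 2 or more places for the peak over exon 39, 51.9% for exon 70 and 51.4% for exon 49, whereas none did for exons 14, 21 and 69. The remaining 4 HERC2 peaks ranged from 10.8 to 47.6%. Without peaks over 10%, HERC2 kept 3 of its 10 peaks. Among all peaks in coding exons, 573 had every word at 1 place, 57 had over 10% of words at more places and 7 had over 50%. The other 4 of those 7 were in TOP3B (91.6%), APOBEC3F (71.4%), SYT15 (58.6%) and SIN3A (54.6%), genes named after this value was seen. All 694 peaks had the score 60, and none belonged to a name listed at 2 positions. At 24 midpoints the base was coding in 2 genes, and at 1 it was coding on both strands.

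The peaks in coding exons came from 6 chromosomes. They numbered 308 on chromosome 3, 209 on 15, 89 on 22, 55 on 10, 24 on 20 and 9 on 7. These counts follow an uneven list in which most chromosomes hold few or no peaks, and only 10 of the 3302 peaks lay on chromosomes other than these 6. As a share of all peaks on the chromosome, coding exons made up 24.1% on chromosome 3 (interval 21.9 to 26.5%) and 25.6% on chromosome 15 (22.7 to 28.6%), against 15.7% on chromosome 22 (12.9 to 18.9%) and 10.7% on chromosome 10 (8.28 to 13.6%). On chromosomes 20 and 7, with 77 and 37 peaks, the shares were 31.2% (21.9 to 42.2%) and 24.3% (13.4 to 40.1%). For the amount of coding sequence there, chromosome 15 had 16.9 peaks per 100 kb, chromosome 3 had 15.2, chromosome 22 had 11.9, chromosome 10 had 3.91, chromosome 20 had 2.82 and chromosome 7 had 0.545.

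**Figure D3:**
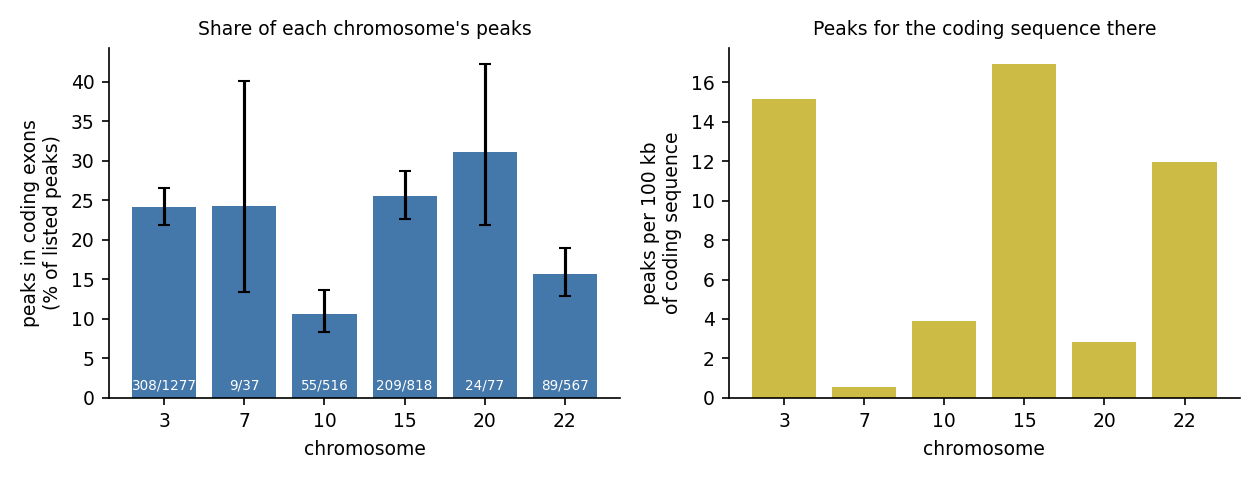
Left, peaks in coding exons as a share of the listed peaks on each chromosome (%), with Wilson 95% intervals and with the counts in the bars. Right, peaks in coding exons per 100 kb of coding sequence on the chromosome. Chromosome 10 has the lowest share (10.7%), and chromosomes 3, 15 and 22 have 11.9 to 16.9 peaks per 100 kb against 0.545 to 3.91 on the others.

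Genes with long coding sequences held a peak more often. The coding length of genes with a peak in a coding exon had a median of 1958 bases and 13 coding exons, against 1335 bases and 8 coding exons over 4309 protein-coding genes on the same chromosomes. The share of genes with such a peak rose from 3.95% (interval 3.07 to 5.07%) where the coding sequence was under 1000 bases to 32.0% (25.4 to 39.3%) where it was 5000 bases or more. Per 100 kb of coding sequence the spread was smaller, 6.53 in the shortest class and between 8.43 and 10.6 in the rest.

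The 11 functional gene lists were read against this background, with 488 of 4362 protein-coding genes on these chromosomes (11.2%, interval 10.3 to 12.2%) holding a peak in a coding exon. A peak of any class lay in 1400 of the 4362 genes (32.1%, interval 30.7 to 33.5%). Of the 6 genes of the glycolysis list on these chromosomes, 3 held a peak anywhere. HK1 alone of the 6 held it in a coding exon, in exon 14 of 18. HK1 had no other peak. Of 4 genes of the exosome and its cofactors 3 held a peak and DIS3L one in a coding exon, exon 4 of 17. The list of splicing factors had such a peak in 2 of 23 genes, MBNL1, a regulator of alternative exons, and SRSF6, an SR protein. Of the 23, 12 (52.2%) held a peak of any class. Without peaks with over 10% of repeated words, 1 splicing factor of the list was left. The list is not complete, and the spliceosome genes AQR, TFIP11 and MFAP1, which it leaves out, had peaks in coding exons, AQR 3 of them.

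Cell cycle and DNA replication genes had one in 16 of 49 (32.7%, interval 21.2 to 46.6%). ZWILCH led with 5, followed by NUSAP1, a spindle protein, and the cohesin subunit STAG1 with 3 each, the spindle checkpoint kinase BUB1B with 2, and AURKA, a mitotic kinase, and CCNB2, cyclin B2, with 1 each. DNA repair genes had one in 6 of 23. They were ATR with 5, TP53BP1, a factor of double-strand break repair, with 3, PARP6 with 2 and MBD4, POLQ and RAD18 with 1 each. Chromatin regulators had one in 12 of 34 (35.3%, 21.5 to 52.1%), with 2 each in BRD1, INO80, KAT2B, PBRM1, SETD2 and SMARCC1.

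Ubiquitin ligases and deubiquitinases had such a peak in 9 of 30 genes (interval 16.7 to 47.9%). Together these held 31 of the peaks, of which HERC2 had 10, HERC1 5, NEDD4 and UBR1 4 each and FBXO22 and RNF13 2 each. Among genes of mitochondrial energy metabolism 9 of 36 had one, among them NDUFAF1, an assembly factor of complex I, with 2 and, with 1 each, ACAD11, COX15, CPT1B and IDH3A. Cell adhesion and guidance receptors had one in 9 of 41, led by NEO1 with 4, CELSR1 and PLXNA1 with 3 each and ROBO1 with 2, followed by CELSR3 and NECTIN3 with 1 each. Of 18 genes for proteins secreted by liver, PROS1, protein S, had 3, ITIH2 had 2 and TF, transferrin, had 1. Without peaks with over 10% of repeated words, the 6 peaks of this list fell to 3.

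Ribosome and translation genes had the lowest share, 2 of 36 (5.56%, interval 1.54 to 18.1%), namely EIF2A and TARS3. Peaks of any class were present in 22 of the 36 (61.1%, interval 44.9 to 75.2%), beside 32.1% of all protein-coding genes. The shares of all 11 lists stood above 32.1%, so the direction was not particular to these genes. The intervals for glycolysis, the exosome, liver secreted proteins, mitochondrial genes and adhesion and guidance receptors included 32.1%, however. For liver secreted proteins the interval ran from 16.3 to 56.3%. The shares ran from 33.3% for liver secreted proteins to 75% for the 4 exosome genes. They were 69.6% for DNA repair, 58.8% for chromatin regulators and 46.3% for adhesion and guidance receptors. The median coding length differed between these lists, from 830 bases for ribosome and translation genes to 3440 bases for chromatin regulators, and the part of length in their shares was not tested. Per 100 kb of coding sequence the value was 4.06 for ribosome and translation genes, 13.2 for chromatin regulators, 23.3 for cell cycle genes and 31.7 for ubiquitin genes, beside 9.17 for all protein-coding genes. It was 24.4 for mitochondrial genes, 19.2 for DNA repair, 18.4 for liver secreted proteins, 18.1 for the exosome, 10.9 for adhesion and guidance receptors, 10.4 for glycolysis and 6.35 for splicing factors. Density also differs by chromosome. With every gene at the mean density of its own chromosome, the values would be 11.8 for ribosome and translation genes and 7.99 for chromatin regulators. They would be 9.86 for cell cycle genes, 10.7 for mitochondrial genes, 13.3 for ubiquitin genes and 13.7 for both DNA repair and liver secreted proteins. For the exosome the value would be 15.8, for adhesion and guidance receptors 12.004, for glycolysis 5.61 and for splicing factors 8.05. Ribosome and translation genes, adhesion and guidance receptors and splicing factors stood below these values. The other lists stood above them, glycolysis and the exosome with 1 peak each. Liver secreted proteins had 6 peaks, beside 4.46 at the density of their chromosomes. Of these 6, 3 were left without peaks with over 10% of repeated words, and the 4.46 was not recomputed for that case. HERC2 alone supplied 10 of the 31 peaks of the ubiquitin list, and 23 of the 31 were left without peaks with over 10% of repeated words.

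**Figure D4:**
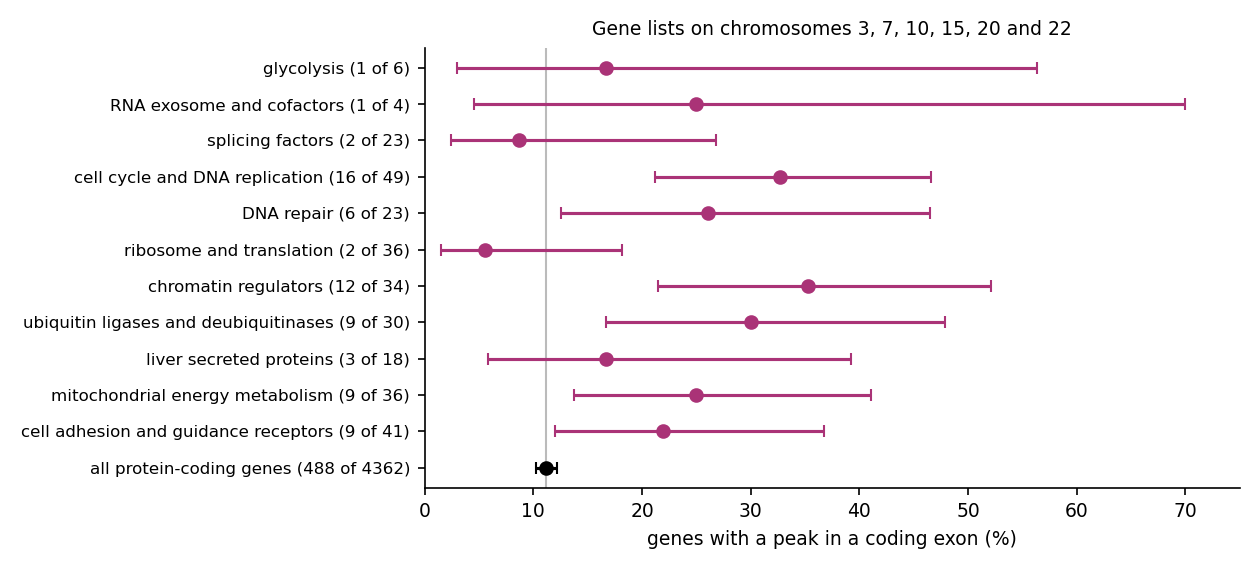
Share of the genes of each list that held a peak in a coding exon (%), with Wilson 95% intervals; counts stand beside the names. The grey line marks all protein-coding genes on these 6 chromosomes (11.2%). The lists were chosen with earlier results of these data known. Shares range from 5.56% for ribosome and translation genes to 35.3% for chromatin regulators.

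Sequence in these peaks was then described with 4 motifs, each searched along the gene strand. The mean GC content was 45.1% ± 11.3 (SD, n = 694), close to intronic peaks at 45.2% ± 10.0 (SD, n = 1543) and far from peaks in coding sequence near a start site at 70.5% ± 7.47 (SD, n = 74). On chromosome 22 it was 59.3% ± 8.55 (SD, n = 89) and on chromosome 15 it was 42.0% ± 8.78 (SD, n = 209). Windows on all coding bases averaged 56.8% and 48.2% there, so the peaks stood below the windows in GC content on chromosome 15 and slightly above them on chromosome 22. Windows in the same genes averaged 45.5% over all 6 chromosomes.

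The poly(A)-like motif, a T followed by a run made mostly of A, was in 11 of the 694 peaks (1.59%, interval 0.887 to 2.82%). Intronic peaks held it in 47 of 1543 (3.05%, 2.30 to 4.03%) and 3' UTR peaks in 17 of 443 (3.84%, 2.41 to 6.06%). It was present in 0.611% of windows on all coding bases and in 0.825% of those in the same genes. All 11 matches lay in introns beside the exon, 2 to 167 bases from it, and none lay in the 137895 coding bases of the peaks. Of these, 7 are printed because they show where in each peak the motif stood, with the motif in capitals, up to 24 bases on either side that belong to the peak, and the distance to the coding exon.
BTAF1, chr10:93699966-93700001, plus strand, 167 bases after coding exon 3: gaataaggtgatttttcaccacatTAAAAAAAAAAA
NUSAP1, chr15:41663860-41663919, plus strand, 2 bases after coding exon 8: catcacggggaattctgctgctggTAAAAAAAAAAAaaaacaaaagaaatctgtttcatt
SETD2, chr3:47103841-47103900, minus strand, 29 bases before coding exon 14: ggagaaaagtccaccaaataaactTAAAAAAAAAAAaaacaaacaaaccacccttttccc
RIOX2, chr3:97678140-97678199, minus strand, 141 bases before coding exon 4: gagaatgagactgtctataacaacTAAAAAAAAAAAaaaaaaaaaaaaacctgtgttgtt
DNAJC13, chr3:132169681-132169740, plus strand, 14 bases after coding exon 6: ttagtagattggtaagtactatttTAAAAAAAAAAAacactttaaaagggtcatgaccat
SLC25A36, chr3:140682063-140682122, plus strand, 18 bases after coding exon 4: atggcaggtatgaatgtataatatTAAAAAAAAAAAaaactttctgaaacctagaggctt
GMPS, chr3:155649448-155649507, plus strand, 71 bases before coding exon 13: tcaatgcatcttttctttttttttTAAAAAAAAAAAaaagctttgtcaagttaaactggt

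The coding bases of the peaks were thus without a long A-rich stretch of this kind, and such stretches were rare in coding sequence altogether, with 17 matches in 7928621 coding bases, or 0.214 per 100 kb. Runs of 8 or more A were also denser outside the coding bases. With each run counted once however long, there were 26 in the 139705 bases of the peaks that are not coding, in 25 peaks, and 8 in the coding bases, in 7 peaks. This gives 18.6 and 5.80 per 100 kb, beside 2.60 in all coding bases on the 6 chromosomes.

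The CCANC motif, in which N stands here for G, C or T, was in 486 of 694 peaks (interval 66.5 to 73.3%). This share was close to intronic peaks (72.9%, 70.6 to 75.1%) and to windows in the same genes (70.9%). The study writes the motif CCAG(C)(U)C in its text and CCAG(C/U/G)C in a figure legend. The motif can also be read with a G before N. So read, it was in 36.5% of the peaks (32.96 to 40.1%), below intronic peaks (45.4%, 42.96 to 47.9%). Windows in the same genes held that form in 37.2%. Under 40% GC, from 40 to 50% and at 50% or more, it was in 14.9, 32.8 and 68.5% of the peaks. In intronic peaks these shares were 22.3, 51.7 and 66.2%. CCANC was denser in the coding bases of the peaks. These held 632 matches per 100 kb and the other bases 296, while all coding bases on these chromosomes held 627, so the coding part of the peaks held the motif about as often as coding sequence at large. The share of peaks with CCANC followed GC content. It was 49.8% in the 295 peaks under 40% GC, 73.9% in the 180 between 40 and 50% and 94.1% in the 219 with 50% or more, and intronic peaks of the same classes held it in 279 of 534, 479 of 592 and 367 of 417.

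TCTT (UCUU in RNA), a core of the sites of PTBP1, a protein that binds pyrimidine tracts and represses exons, showed the opposite arrangement. It was in 602 peaks (86.7%, interval 84.0 to 89.1%) against 85.7% of intronic peaks and 87.7% of windows in the same genes. The bases outside coding sequence held 883 matches per 100 kb and the coding bases 413, beside 406 in all coding bases. The coding bases of the peaks were 50.1% GC and the other bases 40.2%. The part of base composition in the contrasts for CCANC and TCTT was not tested. In the 100 bases upstream of internal exons with a peak there were 11.4 matches per 1000 bases, in the 100 bases downstream 7.26 and in the exons themselves 4.14. For the other exons of the same genes the values were 11.1, 7.44 and 4.42, so the upstream excess was shared by exons without a peak.

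**Figure D5:**
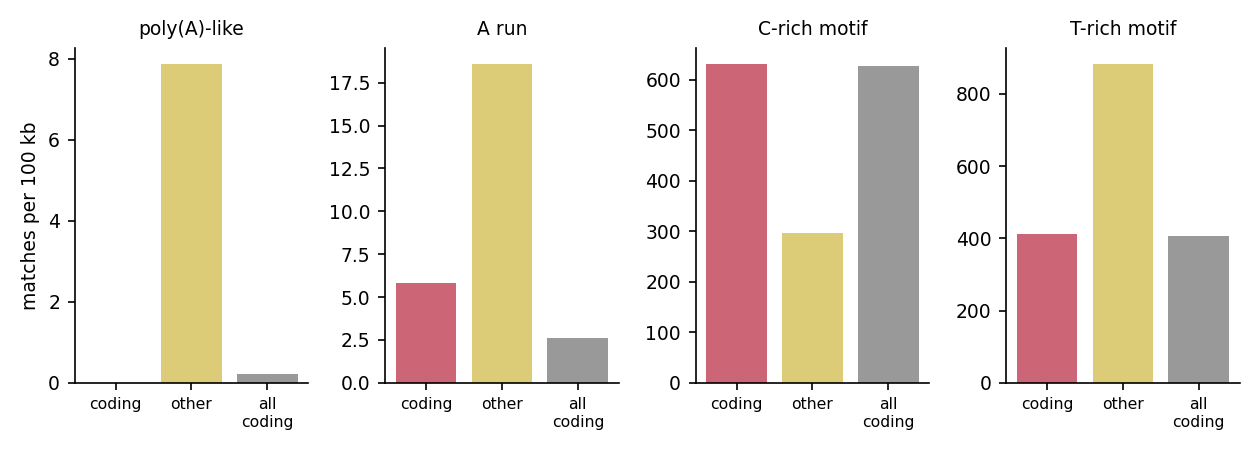
Matches per 100 kb of 4 sequence motifs on the gene strand, in the coding bases of the peaks, in the other bases of the same peaks and in all coding bases of protein-coding genes on the 6 chromosomes. The A run is 8 or more A, counted once per run, the C-rich motif is CCANC with G, C or T at N, and the T-rich motif is TCTT. The poly(A)-like motif is at 0 in coding bases of the peaks and at 7.87 in the others, and the C-rich and T-rich motifs are in the coding bases of the peaks at 632 and 413, beside 627 and 406 in all coding bases.

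At the limit that set these peaks apart from those near a start site, the nearest kept were in NPRL2, 1104 bases from a start, ADM2 at 1130 and COPG1 at 1153. Among the nearest left out were peaks in TSSK2 at 981 and TMUB1 at 938. Distances from a start had a median of 28514 bases over the 694 peaks (quartiles 12082 and 56904), so few depended on where this limit was set.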

How the data were processed

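RIP-seq peaks of 1 anti-HA library of PLC/PRF5 cells were analysed, from the 1 peak list given. Per the methods of the study, reads were mapped to hg19 with TopHat2 2.0.13 and peaks came from RIPSeeker. The settings of the peak caller and the way in which the IgG library entered it are not given in the sources used here. The deposited list holds a position, a name, a strand and a score for 3304 positions. The authors' score is 60 or 1, with no meaning stated, and it ranked nothing; the strand is + throughout and was not used. The 2 positions on chromosome Y or an unplaced scaffold were left out.

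Peaks were joined to GENCODE release 44 on GRCh37, the same build, with Python 3.11.15, numpy 2.4.6 and scipy 1.17.1. The midpoint is base 201 of the 400. Shares have Wilson 95% intervals, which cover counting error within the list only. Means have the SD over peaks. Peaks of 1 library are not replicates, so no p-value is given, and depth is unknown. For the background, a 400-base window was centred on every coding base of canonical transcripts. The annotation lookups and the motif search were tested on made-up transcripts and sequences, and the other steps were not.

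The peaks examined and the gene lists were chosen with earlier results of these data known. Genes were named by rule: the 10 with most peaks in coding exons; genes of the 11 lists with such a peak, up to 6 per list; the 5 longest coding exons; the 3 peaks nearest the 1000-base limit on each side; peaks of a name at 2 positions and exons with more than 1 peak, of which there were none; the first 10 peaks with the poly(A)-like motif; and the first 5 coding in no canonical transcript. Others are named where a value singled them out. Some genes and sequences that this rule picks are not reported here. Alternatives changed the class rule, the limit, the strand and the motif reading, and 27 were added after the data were seen.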

Additional observations from a re-analysis of the deposited data

How the results depend on the processing

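Of 108 alternatives computed, 81 of them planned, 76 left the value within its 95% interval or, for a count, within 1.5 times, and 32 did not. The 76 include alternatives that could not move a value and so say nothing about stability. Keeping only names at 1 position left out no peak, and the merging of neighbouring peaks did not bear on the count of genes. Of these 32, 11 were gene lists counted over any listed peak. The number of peaks depended on the class rule, with 304 peaks in 261 genes when 200 or more coding bases were required and 1202 peaks in 743 genes when 1 was enough. Without the limit from start sites the median position was 48.3%, the mean GC content 47.6%, the share with TCTT 84.0% and the share of genes with another peak 64.0%. Searching both strands gave 3.03% for the poly(A)-like motif, 13.1% for the run of 8 A, 89.9% for CCANC and 97.6% for TCTT. Coding bases alone gave 0, 1.01, 54.9 and 50.6%. The other reading of the CCANC motif, with a G before N, gave 36.5%. More sequence searched or less gives more or fewer matches by construction; the cause was otherwise not tested. The other 27 were chosen after seeing the data. A midpoint 1 base to the left left the counts of peaks and genes within that range. So did leaving out the 57 peaks with over 10% of repeated words, with 637 peaks in 459 genes, but it moved the peaks of HERC2 from 10 to 3 and of liver secreted proteins from 6 to 3, and the peaks and the genes of splicing factors each from 2 to 1. No paired analysis was possible because 1 peak list from 1 library was all that entered the values. Depth is unknown, so missed exons cannot be judged.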
